A study of Mus musculus with 4 samples.

Results

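The 37 genes described here encode fatty acid desaturases and elongases, enzymes of fatty acid and cholesterol synthesis, and regulators of the SREBP transcription factors. They were chosen by gene symbol for their known roles, with earlier results of these data known, and all 37 are among the 17915 coding genes of the deposited table. All of them also passed the filter on low counts that left 13177 genes for testing. RNA was sequenced in bulk from sorted lung endothelial cells of mice of genotype Cdh5-CreER;aSMA-LSL-Dre;NR1. Cdh5-CreER is a tamoxifen-dependent Cre recombinase driven in endothelium, and Dre recombinase sits at the alpha smooth muscle actin gene. The recorder is designed so that ZsGreen labels endothelial cells and tdTomato replaces it after activity of that gene, so tdTomato is meant to mark a history and not a present state. How completely cells convert was not tested. All mice had received tamoxifen 5 times and transverse aortic constriction (TAC, a surgical narrowing of the aorta) 6 weeks earlier, and no unoperated group is analysed here. There were 2 tdTomato+ and 2 ZsGreen+ libraries, labelled as biological replicates. The age of the mice, and whether libraries came from separate or pooled animals, are not stated in the labels, so p-values measure only the spread between these libraries.

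Mammalian cells build saturated fatty acids from acetyl-CoA. Elongases lengthen them, and desaturases place double bonds, either to make monounsaturated fats (the Scd enzymes) or to turn dietary essential fatty acids into arachidonic and related polyunsaturated acids (Fads1 and Fads2). Cholesterol is made from the same acetyl-CoA through mevalonate and squalene. When sterols are scarce, Scap carries the SREBP proteins to the Golgi, where they are cut and released as transcription factors for both pathways, and Insig proteins hold Scap back when sterols are plentiful. Endothelium takes up much of its lipid from blood, and in the lung the cells best known for fat synthesis are the surfactant-making alveolar type 2 cells.

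The libraries held between 17050673 and 18574737 estimated counts. Endothelial markers summed to 12442 and 11707 CPM (read counts scaled to library size, with TMM, a trimmed mean of library ratios) in tdTomato+ cells and to 16083 and 12542 CPM in ZsGreen+ cells, with Eng, the coreceptor endoglin, the highest of the 10. Acta2, the gene the recorder reads, measured 304 and 527 CPM with tdTomato+ against 87.6 and 82.9 with ZsGreen+. This is a log2 fold change, always given as tdTomato+ over ZsGreen+, of 2.29 (standard error, SE, 0.29; edgeR adjusted p = 0.0432). The call ended when tdTomato+ replicate 2 was left out (1.86, edgeR adjusted p = 0.122) and when ZsGreen+ replicate 2 was left out (2.24, edgeR adjusted p = 0.111). In bulk RNA, fewer cells of a type and less RNA per cell cannot be told apart.

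Of the whole list 1 gene, the desaturase Fads2, was called, at an edgeR p adjusted over all genes tested of under 0.05, and it was higher in tdTomato+ cells. Over all genes tested 0.304% were called in either direction. The next genes by p were Fads3, Me1, Elovl7 and Scd1. These 5 genes had an unadjusted edgeR p under 0.05 with higher values in tdTomato+ cells, against 5.62% of all genes, and no member had one with lower values, against 3.15% of all genes. The median log2 fold change was 0.17 over the 37 members and -0.01 over all genes. A value above 0 was found in 24 members and one below 0 in 13, where 49.3% of all genes lay above 0. Both tdTomato+ libraries exceeded both ZsGreen+ libraries in 14 members, against 19.9% of all genes, and lay below both in 5, against 18.2%. In the other 18 members the groups overlapped. The group difference was larger than the gap between replicates of both groups in 11 members (29.7%), against 25.0% of all genes.

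**Figure D1:**
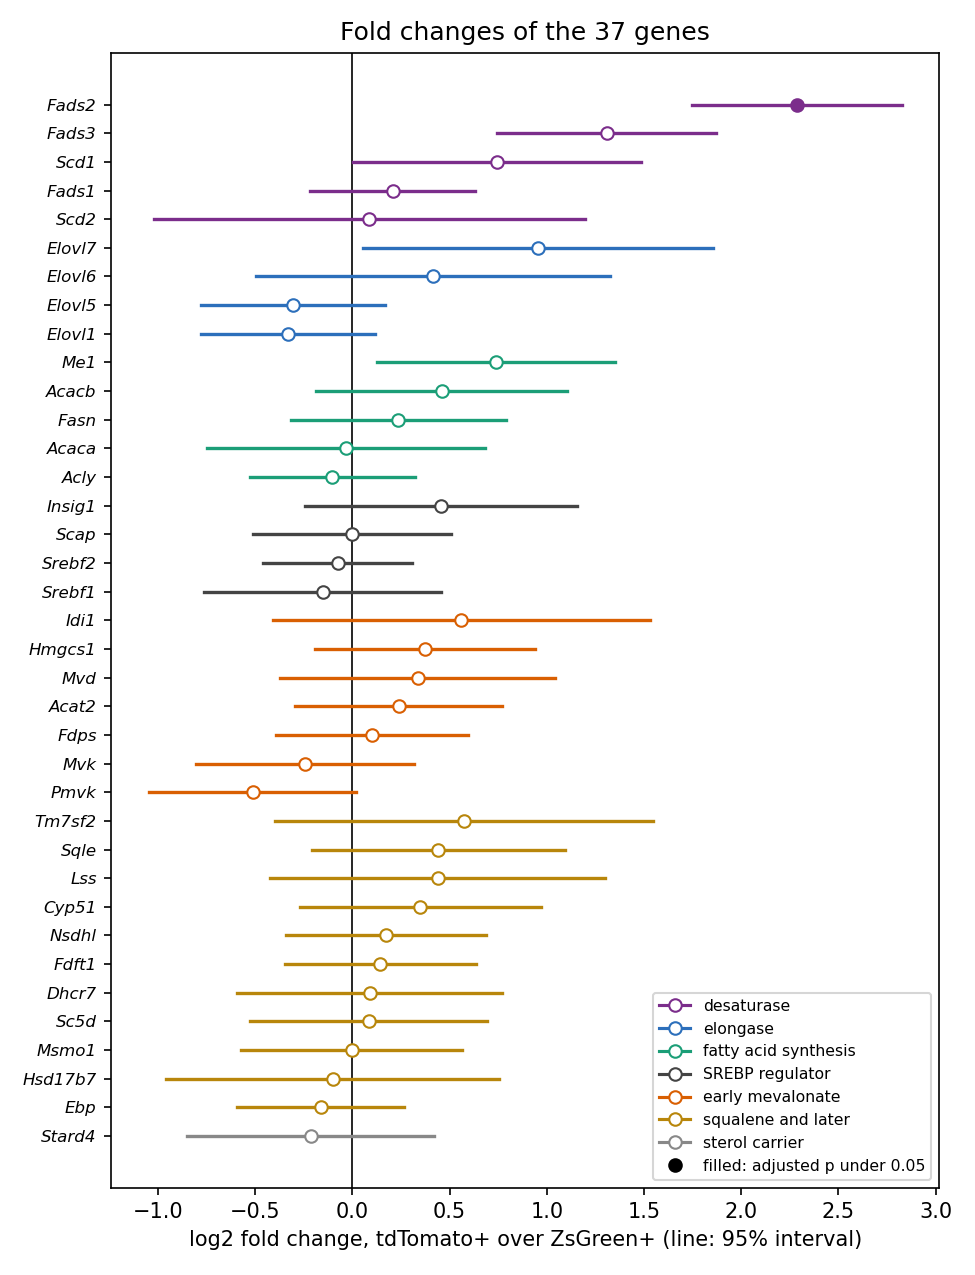
Log2 fold change of each of the 37 genes, tdTomato+ over ZsGreen+, with its 95% interval as a line, grouped and coloured by role. The filled point is Fads2 at 2.29, the called gene, and the points of the other 36 lie between -0.51 and 1.31.

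Fads2, the delta-6 desaturase that takes the entry step from linoleic and alpha-linolenic acid to longer polyunsaturated acids, had 1492 and 2086 counts in tdTomato+ cells and 341 and 324 in ZsGreen+ cells. These were 82.0 and 109 CPM against 21.6 and 17.7. Both tdTomato+ libraries were far above both ZsGreen+ libraries. Replicate 1 over replicate 2 was 0.750 in the tdTomato+ group and 1.22 in the ZsGreen+ group. The mean was 95.7 ± 19.4 CPM in tdTomato+ cells and 19.7 ± 2.71 CPM in ZsGreen+ cells (SD, n = 2 per group). The fold was 4.87 (95% interval 3.35 to 7.09; log2 fold change 2.29, SE 0.23; edgeR adjusted p = 0.0304). By p, Fads2 ranked 8 among the 13177 genes tested. Without tdTomato+ replicate 2 the log2 fold change was 2.09 and the call ended (edgeR adjusted p = 0.122).

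Fads3, a desaturase of the same family whose known work includes sphingoid bases, had 57.8 and 82.3 CPM with tdTomato+ against 31.1 and 25.6 with ZsGreen+. The groups did not overlap, and the log2 fold change of 1.31 (SE 0.24) was larger than the gap between libraries of either group. It did not pass the test over all genes (edgeR adjusted p = 0.122). DESeq2 called Fads3 (adjusted p = 0.000574), as it did 2.44% of the genes it tested, and so did edgeR without a filter on low counts (adjusted p = 0.0350). With limma-voom it was not called (adjusted p = 0.132), and 4 of 16 alternatives called it. The log2 fold change was 1.46 without ZsGreen+ replicate 1 and 1.05 without tdTomato+ replicate 2.

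Fads1, the delta-5 desaturase that acts after Fads2 and makes arachidonic acid, had 91.5 and 106 CPM with tdTomato+ against 79.6 and 91.4 with ZsGreen+. The lower tdTomato+ library lay only just above the higher ZsGreen+ library. The log2 fold change was 0.21, with a 95% interval of -0.22 to 0.63 (edgeR adjusted p = 0.851), which reaches to 1.55-fold and lies below the interval of Fads2.

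Per length, on the TPM scale (counts scaled to gene length and library size), the order within the family differed between the groups. In ZsGreen+ cells Fads1 led at 32.0 and 43.3 TPM, and Fads2 and Fads3 lay at 10.1 to 13.3 TPM. In tdTomato+ cells Fads2 led at 49.1 and 62.3 TPM, with Fads1 at 45.5 and 50.1 TPM and Fads3 at 30.6 and 41.4 TPM. The ratio of Fads2 to Fads1 TPM was 1.08 and 1.24 in tdTomato+ libraries and 0.326 and 0.234 in ZsGreen+ libraries. The ratio of Fads2 to Fads3 was 1.61 and 1.51 against 0.787 and 0.786, so both ratios were higher in each tdTomato+ library. An exact two-sided permutation test of 2 against 2 libraries cannot go below p = 0.333, so none is given for these ratios.

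**Figure D2:**
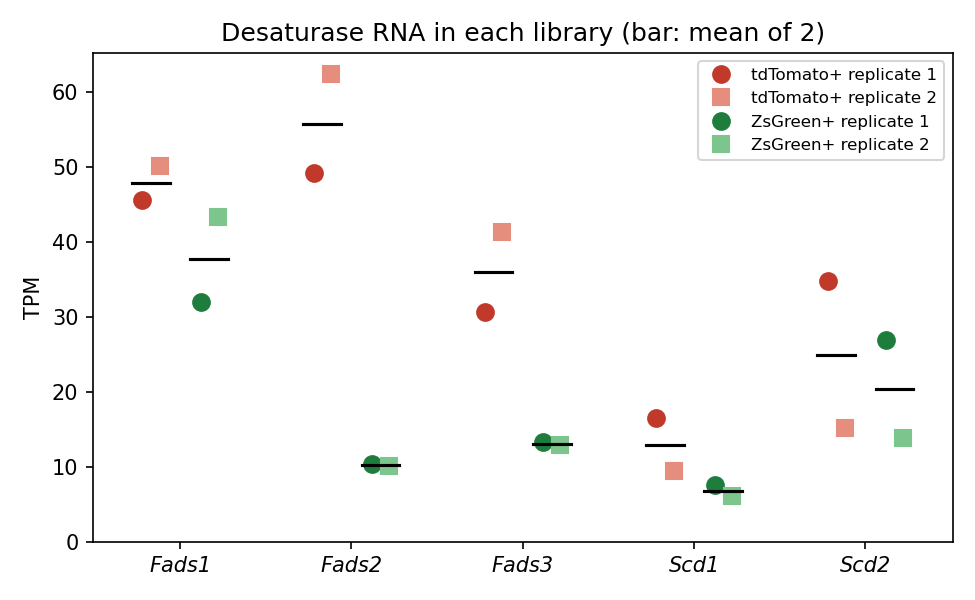
TPM of the 5 desaturases in each library, with a bar at the mean of the 2 libraries of a group. Fads2 and Fads3 separate the groups, at 49.1 and 62.3 against 10.4 and 10.1 TPM for Fads2, while Scd2 spreads as widely within each group as across them.

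The 3 Fads genes lie together on chromosome 19 of GRCm38. Fads3 (NCBI Gene 60527) spans positions 10040855 to 10060113 on the plus strand and Fads2 (NCBI Gene 56473) 10062765 to 10101503 on the minus strand, so their 3′ ends face each other across 2651 bases. Strandedness is not stated, so reads running past either end cannot be told apart. Fads1 (NCBI Gene 76267), at 10182877 to 10196874 on the plus strand, starts 81373 bases from the start of Fads2. The table holds 9 other coding genes within 250 kb of the cluster, a window chosen after the values of the Fads genes were seen. None was called (smallest edgeR adjusted p = 0.546), where 0.304% of all genes were called. An unadjusted edgeR p under 0.05 was found in 2, Myrf and Syt7, against 8.77% of all genes. The log2 fold changes of the 9 ran from -1.12 in Myrf, a transcription factor known from myelin, to 0.97 in Syt7, a calcium sensor of membrane fusion. Their median was -0.04. The genes flanking the cluster were Rab3il1 at -0.62 on the Fads3 side and Fen1, a DNA repair nuclease, at -0.11 on the Fads1 side. DESeq2, which called 2.44% of the genes it tested, and limma-voom also called none of the 9.

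**Figure D3:**
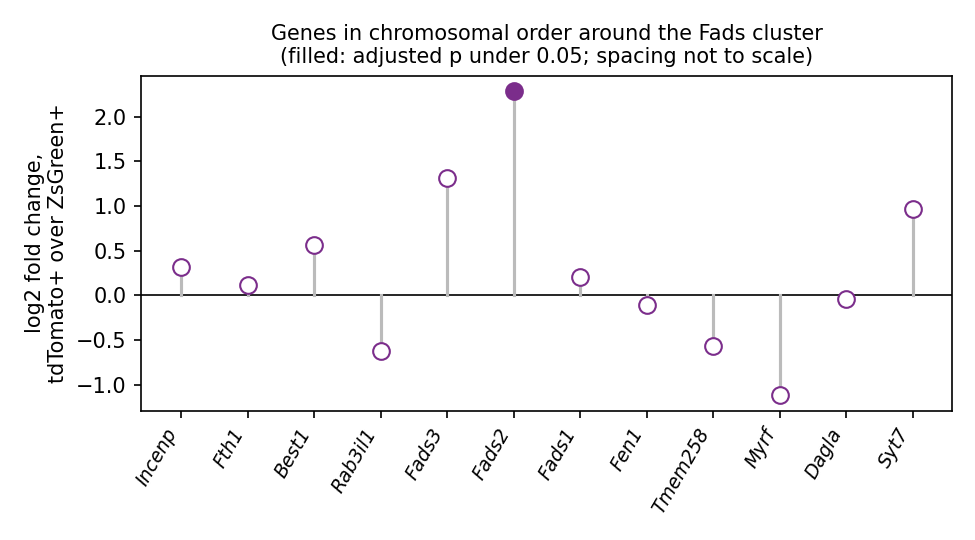
Log2 fold change of the 12 coding genes around the Fads cluster in chromosomal order, with the called gene filled. Fads3 and Fads2 stand next to each other at 1.31 and 2.29, and the 9 genes outside the cluster lie between -1.12 and 0.97.

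Promoter letters are shown for the called gene, its convergent neighbour and a sterol enzyme, since SREBP proteins are known to act beside the factors NF-Y and Sp1. Each line gives the 250 bases before a start annotated in RefSeq's GRCm38.p6, 5′ to 3′ on the gene's strand. For Fads3 this window lies inside the gene span given above, which begins at 10040855, and does not precede it. Capitals mark matches on either strand to TCACNCCAC, a form of the sterol regulatory element, to CCAAT, the core of NF-Y sites, or to GGGCGG, the core of Sp1 sites. The windows are chr19:10101504-10101753 (minus strand) for Fads2, chr19:10041298-10041547 (plus) for Fads3 and chr13:119690101-119690350 (plus) for Hmgcs1, which makes HMG-CoA ahead of mevalonate.
Fads2: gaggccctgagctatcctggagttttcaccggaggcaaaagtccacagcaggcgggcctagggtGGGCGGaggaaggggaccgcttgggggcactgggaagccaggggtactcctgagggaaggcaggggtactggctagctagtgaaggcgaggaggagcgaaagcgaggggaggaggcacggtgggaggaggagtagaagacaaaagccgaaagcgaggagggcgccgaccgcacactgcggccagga
Fads3: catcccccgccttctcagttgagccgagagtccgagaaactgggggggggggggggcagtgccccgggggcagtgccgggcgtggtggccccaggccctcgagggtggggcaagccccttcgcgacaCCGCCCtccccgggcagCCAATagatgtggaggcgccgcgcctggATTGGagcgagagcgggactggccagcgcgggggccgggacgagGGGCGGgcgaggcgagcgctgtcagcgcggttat
Hmgcs1: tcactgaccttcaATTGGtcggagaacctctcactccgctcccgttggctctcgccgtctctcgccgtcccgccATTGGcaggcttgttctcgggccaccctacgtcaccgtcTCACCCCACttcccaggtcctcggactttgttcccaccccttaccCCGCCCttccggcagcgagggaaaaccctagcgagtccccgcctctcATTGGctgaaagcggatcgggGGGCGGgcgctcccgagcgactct

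The Fads2 window holds GGGCGG at -186 to -181 from the start and no other match. The Fads3 window holds CCAAT and GGGCGG at 2 places each, and the Hmgcs1 window holds TCACNCCAC at -137 to -129 with 3 matches to CCAAT and 2 to GGGCGG. RefSeq promoter windows were matched for 30 of the 37 members. CCAAT was found in 23 of the 30 and in 40.4% of the tested genes that have a window, and GGGCGG in 24 and in 62.5%. Both were found together in 18 of the 30 members and in 23.2% of tested genes. Of the enzymes from squalene on, 9 had a window and all 9 held both motifs. TCACNCCAC was found in Hmgcs1 alone among the 30 members and in 1.16% of tested genes. A match is a description of the letters, not a site in use.

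The stearoyl-CoA desaturases, which make monounsaturated oleic and palmitoleic acid, gave smaller values than Fads2, and neither was called. Scd1 had 47.0 and 28.3 CPM with tdTomato+ against 26.5 and 18.3 with ZsGreen+, so the lower tdTomato+ library lay just above the higher ZsGreen+ library. The difference was 0.75 on the log2 scale (SE 0.31) and did not pass (edgeR adjusted p = 0.567). Without tdTomato+ replicate 1 it was 0.33. Scd2, at 113 and 51.4 CPM against 108 and 46.9, showed a spread within each group of more than 2-fold and nearly the same mean in both, with a log2 fold change of 0.09 and a 95% interval of -1.02 to 1.20. The Scd genes are close copies and their estimated counts are not whole numbers, as when reads are shared between rows. Summed over Scd1 to Scd4 the level was 160 and 80.3 CPM against 135 and 65.2 (log2 fold change 0.27, SE 0.42; edgeR adjusted p = 0.937).

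The elongases included the genes with the highest TPM of the list, and none was called. Elovl1, which makes very long saturated and monounsaturated chains, had 227 and 270 CPM with tdTomato+ against 314 and 311 with ZsGreen+, and it led the list per length at 222 to 293 TPM. Elovl5, which lengthens the polyunsaturated products of Fads2, had 284 and 279 CPM against 307 and 389 and was the next per length at 155 to 233 TPM. In both genes the tdTomato+ libraries lay below the ZsGreen+ libraries in CPM. Neither passed the test, with log2 fold changes of -0.33 (95% interval -0.78 to 0.12) and -0.31 (-0.78 to 0.17) and edgeR adjusted p of 0.740 and 0.783. In TPM the groups overlapped for both.

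Elovl7, an elongase of saturated and polyunsaturated chains, had 10.6 and 15.7 CPM with tdTomato+ against 5.06 and 8.49 with ZsGreen+. Its log2 fold change of 0.95 (SE 0.38) did not pass (edgeR adjusted p = 0.537). Elovl6, which extends palmitate to stearate, ranged from 5.75 to 11.2 CPM over the 4 libraries, with the ZsGreen+ values inside the tdTomato+ range except for ZsGreen+ replicate 1, and its log2 fold change was 0.42 (SE 0.38).

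No enzyme of fatty acid synthesis from citrate was called. Acly, which splits citrate to acetyl-CoA and was the highest of them per length at 41.9 to 52.4 TPM, had 136 and 114 CPM with tdTomato+ against 142 and 126 with ZsGreen+ (log2 fold change -0.10, 95% interval -0.53 to 0.32). Fasn, the fatty acid synthase, ranged from 26.4 to 39.6 CPM with overlapping groups (log2 fold change 0.24, 95% interval -0.32 to 0.79). The acetyl-CoA carboxylases, which supply malonyl-CoA, were low per length. Acaca, the cytosolic form, lay at 1.58 to 2.13 TPM and Acacb, the form at mitochondria, at 2.07 to 3.79 TPM. Their log2 fold changes were -0.03 (SE 0.30) and 0.46 (SE 0.27). Me1, malic enzyme, a source of NADPH, had 24.4 and 35.8 CPM with tdTomato+ against 16.8 and 19.2 with ZsGreen+. The groups did not overlap, and the log2 fold change of 0.74 (SE 0.26) did not pass (edgeR adjusted p = 0.450).

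No SREBP regulator was called. Srebf1, which encodes SREBP-1, the form tied to fatty acid genes, had 112 and 91.8 CPM with tdTomato+ against 140 and 86.7 with ZsGreen+. Srebf2, which encodes SREBP-2, the form tied to sterol genes, stayed between 113 and 126 CPM in all 4 libraries. Scap ranged from 75.0 to 108 CPM. The log2 fold changes of these 3 genes were -0.15 (95% interval -0.76 to 0.45), -0.08 (-0.46 to 0.31) and -0.00 (-0.51 to 0.51). RNA of these genes does not show how much SREBP protein was cut and active. Insig1, which holds Scap back and is itself a known SREBP target, had 54.2 and 32.5 CPM against 36.4 and 26.8, with tdTomato+ replicate 1 alone above the others (log2 fold change 0.46, SE 0.30; edgeR adjusted p = 0.781).

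None of the 18 cholesterol enzymes was called by edgeR, DESeq2 or limma-voom, and none had an unadjusted edgeR p under 0.05, where 0.304% of all genes were called by edgeR and 8.77% had such a p. Their median log2 fold change was 0.16, with 13 above and 5 below 0, where 49.3% of all genes lay above 0. Both tdTomato+ libraries were above both ZsGreen+ libraries in 7 enzymes and below in 2, shares that stand beside 19.9% and 18.2% of all genes. Summed per length, the 18 enzymes gave 449 and 391 TPM in tdTomato+ cells and 364 and 370 TPM in ZsGreen+ cells. Their summed CPM overlapped between the groups, at 494 and 450.2 against 468 and 418. The order of libraries was uneven. Replicate 1 of tdTomato+ cells was the highest of the 4 in 9 of the 18 enzymes, where it was highest in 23.9% of all genes, and ZsGreen+ replicate 2 was the lowest in 8, where it was lowest in 27.8%. Without tdTomato+ replicate 1, 11 of the 18 lay above 0, and without ZsGreen+ replicate 2, 10 did.

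In the early steps Fdps, farnesyl diphosphate synthase, was the highest per length at 79.2 to 112 TPM, with 73.5 and 58.2 CPM with tdTomato+ against 68.4 and 54.5 with ZsGreen+. Hmgcs1 had 51.2 and 43.2 CPM against 29.8 and 43.0, so that ZsGreen+ replicate 1 alone was low (log2 fold change 0.37, 95% interval -0.19 to 0.94). Idi1, isopentenyl diphosphate isomerase, had the largest value of the group at 0.56 (SE 0.41), with 10.4 and 11.2 CPM against 4.69 and 9.93, again with ZsGreen+ replicate 1 low. The kinases of the pathway lay on the other side of 0. Pmvk, phosphomevalonate kinase, had 20.1 and 17.3 CPM with tdTomato+ against 29.3 and 24.2 with ZsGreen+, the largest negative value of the list (log2 fold change -0.51, SE 0.22; edgeR adjusted p = 0.586). Mvk, mevalonate kinase, had a log2 fold change of -0.24 (SE 0.24). Mvd, the decarboxylase that follows them, had 25.4 and 27.2 CPM against 26.6 and 15.1, so ZsGreen+ replicate 2 alone was low (log2 fold change 0.33, SE 0.30). Without that library it was -0.02. Acat2, the cytosolic thiolase, gave 0.24 (SE 0.22), and 0.22 (SE 0.22) when summed with its close copy Acat3.

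From squalene on, Ebp, the sterol isomerase, was the highest per length, at 72.5 to 79.8 TPM in all 4 libraries (log2 fold change -0.16, SE 0.18). Sqle, squalene epoxidase, a known control point of the pathway, had 20.3 and 15.0 CPM with tdTomato+ against 14.2 and 11.8 with ZsGreen+ (log2 fold change 0.44, SE 0.27; edgeR adjusted p = 0.775). Lss, which closes the ring to lanosterol, and Cyp51, which removes a methyl group from it, had values of 0.44 (SE 0.36) and 0.35 (SE 0.26). In Cyp51 tdTomato+ replicate 1 stood alone at 24.3 CPM, with the other 3 libraries between 15.8 and 16.8 CPM. Tm7sf2, a sterol reductase, had the largest value of the group at 0.57 (SE 0.41), from 52 to 89 counts per library, and 532 bases of an exon are shared with Vps51 on the same strand. Msmo1, Nsdhl and Hsd17b7, which remove methyl groups from the ring, had values of -0.00, 0.17 and -0.10. Dhcr7 and Sc5d, which act last, had 0.09 and 0.08, and Fdft1, squalene synthase, had 0.14. Stard4, which carries cholesterol between membranes, had 66.4 and 63.8 CPM with tdTomato+ against 55.5 and 95.5 with ZsGreen+, so the spread of the ZsGreen+ libraries enclosed the tdTomato+ values (log2 fold change -0.21, SE 0.27).

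**Figure D4:**
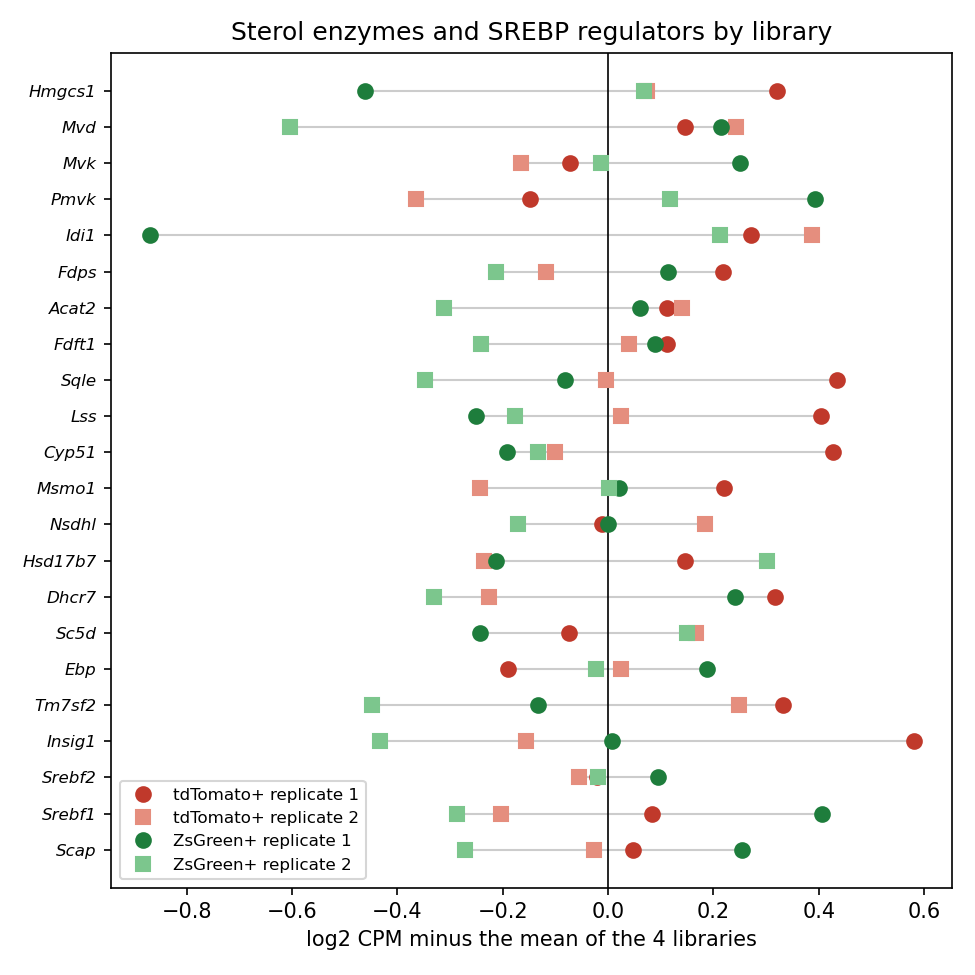
Log2 CPM of the 18 cholesterol enzymes and 4 SREBP regulators in each library, minus the mean over the 4 libraries. Points of both groups mix in most rows, tdTomato+ replicate 1 is farthest right in 9 of the 18 enzymes, and Srebf2 is the narrowest row.

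Other genes of these pathways, from lists that do not hold the 37, gave no call by edgeR among 51 tested of 59, with 4 at an unadjusted p under 0.05 (8.77% of all genes). DESeq2 called 1 of them, Elovl4, against 2.44% of the genes it tested, and limma-voom none. Among 14 further genes of sterol synthesis and its control the median log2 fold change was -0.10. Acat1, the mitochondrial thiolase, had 65.5 and 75.6 CPM with tdTomato+ against 76.8 and 84.6 with ZsGreen+ (log2 fold change -0.19, SE 0.18; edgeR adjusted p = 0.859). The groups did not overlap in CPM, although the nearest libraries were close. In TPM they overlapped, at 33.5 and 36.8 against 31.7 and 41.3.

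Of 19 genes of sterol uptake and efflux 17 were tested, with a median of 0.14. Scarb1, a receptor for high density lipoprotein, had 778 and 516 CPM with tdTomato+ against 1467 and 823 with ZsGreen+ (log2 fold change -0.82, SE 0.33; edgeR adjusted p = 0.540). Nr1h3, the sterol-sensing receptor LXR alpha, had 15.9 and 19.3 CPM against 13.2 and 7.45 (0.77, SE 0.34). Neither passed.

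Of 26 further genes of fatty acid elongation, desaturation and supply 20 were tested, with a median of -0.10. Elovl4, an elongase of very long polyunsaturated chains, had 95 and 77 counts in tdTomato+ cells and 11 and 7 counts in ZsGreen+ cells, or 5.22 and 4.04 CPM against 0.70 and 0.38. The groups were far apart at a low level, with a log2 fold change of 3.10 (SE 0.58). It did not pass with edgeR (adjusted p = 0.129) or limma-voom (adjusted p = 0.178). It passed with DESeq2 (adjusted p = 0.00246) and with edgeR without a filter on low counts (adjusted p = 0.0441). Fits that left out 1 library gave log2 fold changes of 2.72 to 3.58. Lpcat3, which places polyunsaturated acids into phospholipids, had 129 and 132 CPM against 196 and 162 (-0.46, SE 0.18; edgeR adjusted p = 0.516). Hacd4, a dehydratase of the elongation cycle, had 7.84 and 10.6 CPM against 5.56 and 5.76 (0.71, SE 0.34).

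RNA of other lung cells was present. Its summed level was above both ZsGreen+ libraries in both tdTomato+ libraries for fibroblast and alveolar type 2 markers. The same order held for 14 of the 37 members, among them Fads2, Fads3, Me1, Elovl7 and Scd1, against 19.9% of all genes. The part of this RNA in the members' values was not tested. The 10 fibroblast markers summed to 253 and 458 CPM with tdTomato+ against 118 and 132 with ZsGreen+, all 10 with a log2 fold change above 0. None was called by edgeR or limma-voom and 4 by DESeq2, which called 2.44% of the genes it tested. An unadjusted edgeR p under 0.05 was found in 5, against 8.77% of all genes. The same shares of all genes stand beside the counts of the lists that follow. Col1a1 was the highest of the 10. In the fibroblast and alveolar type 2 sums tdTomato+ replicate 2 was the highest library. It was also the highest in 10 of the 37 members, among them Fads2 and Fads3, against 19.7% of all genes. In Fads2 and Fads3 ZsGreen+ replicate 1 was above ZsGreen+ replicate 2, as in the alveolar type 2 sum. In the fibroblast sum it was below. The 10 alveolar type 2 markers summed to 551 and 643 CPM against 436 and 289, 9 above 0, none called by edgeR, 2 by DESeq2 and 4 at an unadjusted p under 0.05, with the surfactant gene Sftpc the highest. The 10 macrophage markers summed to 5601 and 2689 CPM against 3163 and 747, 9 above 0, none called by edgeR, 1 by DESeq2 and 2 at an unadjusted p under 0.05, with Lyz2 the highest. The macrophage sums overlapped between the groups. The order of libraries in the macrophage sum, led by tdTomato+ replicate 1 and lowest in ZsGreen+ replicate 2, was also that of 6 of the 37 members (16.2%), Scd2, Fasn, Insig1, Fdps, Fdft1 and Dhcr7, against 5.34% of all genes. This order has replicate 1 above replicate 2 in both groups, which was so in 18 of the 37 members, against 29.0% of all genes. The part of macrophage RNA in the values of the 6 was not tested. The 4 pan-leukocyte markers, led by Laptm5, summed to 394 and 241 CPM against 248 and 56.8, again with overlap. The order of libraries was the same as in the macrophage sum. Smooth muscle markers other than Acta2, 5 genes led by Des, summed to 23.2 and 43.9 CPM against 26.4 and 28.0. Of the 10 endothelial markers 8 lay below 0 and 2 above, where 49.3% of all genes lay above. None of these 10 was called by edgeR, 1 by DESeq2, and 1 had an unadjusted edgeR p under 0.05.

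Of the adipocyte markers, Adipoq and Pck1 had no count in any library, which allows up to 3 counts per library, and Plin1 stayed at or under 0.16 CPM. The 7 adipocyte markers, led by Cidec, summed to 8.08 and 8.97 CPM against 4.55 and 3.28. The 2 that passed the filter, Cidec and Plin4, were higher in both tdTomato+ libraries than in both ZsGreen+ libraries. Cidec, a lipid droplet protein, had 5.33 and 6.87 CPM against 3.48 and 1.81 (log2 fold change 1.21, SE 0.47; edgeR adjusted p = 0.524). Plin4, another, had 2.69 and 1.73 CPM against 0.63 and 1.37 (log2 fold change 1.13, SE 0.66; edgeR adjusted p = 0.757) and is named after its values were seen. Neither passed, and their part in the members' values was not tested. Lymphatic endothelial markers lay the other way, with 6 of 7 below 0 and 3 called lower by edgeR, against 0.137% of all genes. The 3 were Mmrn1, Reln and Thy1, named after their values were seen. Lyve1, the most abundant, had 503 and 839 CPM against 407 and 592.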

How the data were processed

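Lung endothelial cells were sorted, and their RNA was amplified by whole transcriptome amplification and sequenced on libraries for MGI instruments, per the labels' protocols. Amplified reads without molecular identifiers are not independent molecules. The submitters' processing notes name RSEM 1.3.1, DESeq2 1.4.5 and the builds mm10 and GRCm38, without saying what each was used for, and strandedness is not stated in the labels. The authors deposited estimated counts per gene, 16.2% to 17.9% of them not whole, which were rounded for tests, and TPM values, used for levels per length. The 8 deposited columns of FPKM and normalised counts were not used. Exons of 13 members overlap another gene in GENCODE M21, 6 of them a coding gene (Cyp51, Elovl1, Fdft1, Fdps, Srebf1 and Tm7sf2). Reads of overlaps on opposite strands cannot be told apart without strand. The longest of these was 774 bases of Fdft1 with the gene Ctsb. Fdps (197 bases, with Gm43738) and Tm7sf2 overlap a coding gene on the same strand, where strand would not separate the reads.

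Groups came from the sample titles. edgeR 4.0.16 (R 4.3.3) compared tdTomato+ with ZsGreen+ libraries by its quasi-likelihood F-test, two-sided, with TMM factors and filterByExpr at a minimum count of 10, and adjusted p over all 13177 genes by Benjamini-Hochberg. SE was derived from F and the log2 fold change, and intervals use the total degrees of freedom. The procedure was tested on simulated data. Alternatives used DESeq2 1.42.0, limma 3.58.1, other scalings and filters, and fits without each library. The members, the pathway and marker lists and the rule for named genes were chosen with earlier results of these data known. The rule gives library values for members called or with an unadjusted p under 0.05 and for the highest and most changed member of each role, single values within named families, up to 3 genes by p of each further list with a mean of at least 1 CPM, and the highest marker of each cell type. Some genes that this rule names are not reported here.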

Additional observations from a re-analysis of the deposited data

How the results depend on the processing

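Over all genes edgeR called 40 (22 higher, 18 lower), DESeq2 330, edgeR without a filter 128, and limma on log2(TPM + 0.1) 22. Leaving out 1 library gave 4 to 304 calls. On log2(TPM + 1), 31 were called, 71.0% of them higher against 55% in CPM, and 72.7% were higher on log2(TPM + 0.1). TPM moved the median log2 fold change of all genes to 0.12 and 0.13, and that of the members to 0.29 and 0.30. Relative to that median 26 and 25 members lay above it, against 26 in CPM. Among members, calls were Fads2 alone in CPM, 2 (Fads2 and Fads3) with DESeq2 or without a filter, and 0 to 2 when 1 library was left out. Fads2 was called under 15 of 16 alternatives, at log2 fold changes of 2.09 to 2.48, and the exception was the fit without tdTomato+ replicate 2. Among the related lists 1 gene was called with DESeq2 and 1 without a filter (Elovl4 in both), against 0 with edgeR, and 0 to 1 when 1 library was left out (Apoe, without ZsGreen+ replicate 1, named after its values were seen). No sterol enzyme was called under any alternative.

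The groups share replicate numbers, which nothing in the labels ties to an animal. Deviations of same-numbered libraries from their group means correlated at 0.45 over 13177 genes, and 18 of 37 members (29.0% of all genes) were higher in replicate 1 of both groups. With the replicate number as a block, edgeR called 934 genes, 4 members (Fads2, Fads3, Scd1 and Elovl7) and 5 genes of the related lists (among them Scarb1, Apoe, Gramd1a and Elovl4). With 2 libraries per group, the number of libraries and the counts of low genes such as Elovl4 and Tm7sf2 limit the precision.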
